A study of Homo sapiens with 12 samples.

Results

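Imprinted genes are expressed from the copy inherited from one parent only, and at several of them CTCF and cohesin shape which enhancer reaches which promoter. The text below describes CTCF and cohesin binding at 10 imprinted genes: H19, IGF2, KCNQ1OT1, CDKN1C, DLK1, MEG3, MEST, PEG10, PEG3 and SNRPN. All peaks of SMC1 and CTCF that overlapped one of these genes, or lay within 50 kb of it, were taken, with the interval chr11:2016000-2026000 (hg19) that holds the H19 imprinting control region. These were 184 of the 265912 SMC1 and CTCF peaks of the series. Merged over genotypes, they formed 27 of 38018 SMC1 regions and 37 of 53945 CTCF regions.

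The cells were HAP1, a near-haploid human line that came from a chronic myeloid leukaemia, so that most chromosomes are present in 1 copy, and the labels do not say which parent's copy was kept. There were 4 genotypes, each a CRISPR-made or parental line: wild-type HAP1, ΔWAPL (WAPL disrupted by a blasticidin cassette, WaplKO_3.3 in the labels), ΔSCC4 (SCC4 disrupted by a puromycin cassette), and ΔWAPL/ΔSCC4, in which SCC4 was disrupted in the ΔWAPL clone and which is called the double deletion here. WAPL releases cohesin from DNA, and SCC4 is a subunit of the SCC2/SCC4 loader that brings cohesin onto DNA. Chromatin was precipitated with antibodies to SMC1 (a core subunit of the cohesin ring), to CTCF or with IgG, and each combination was sequenced in 1 library. A difference between genotypes below is therefore a difference between 2 libraries, with no replicate check, and no test between genotypes was possible.

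CTCF is a zinc-finger protein that binds an asymmetric DNA motif, and cohesin that travels along DNA tends to stop at CTCF sites. At the H19 control region, CTCF is known to bind the unmethylated maternal copy, where it keeps the enhancers beyond H19 from the IGF2 promoters. On the paternal copy the region is methylated, CTCF does not bind and IGF2, a fetal growth factor, is expressed. Control regions of the other loci work mostly through methylated promoters or long non-coding RNAs such as KCNQ1OT1 and MEG3.

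The first of the quantities used is the summit pileup, the number of reads (extended to the fragment length) over the highest point of a peak. It was recovered from the deposited values and, to compare libraries, taken relative to each library's average. Ratios between libraries carry a 95% exact binomial interval, which covers counting error only. The other is the presence or absence of a peak in the deposited list. The average depth was 6.79 to 8.41 reads per kb in the SMC1 libraries, 6.53 to 8.41 in the CTCF libraries and 5.43 to 9.05 in the IgG libraries. The 4 IgG lists held 390 to 570 peaks each, and no IgG peak lay near any of the 10 genes.

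The H19 control region was searched for the CTCF motif, because its binding sites are what the locus is known for. A 19-base motif was learned from wild-type CTCF summits on odd-numbered chromosomes away from these genes, with the consensus TGGCCACCAGGGGGCGCTG, and both strands were searched with a score that the best match passed in 1% of windows of the same length placed beside CTCF peaks. Those windows were as long as the stretches around the summits, 50 bases to each side, and lay 1000 bp away. The 10 kb interval is far longer than such a window, so matches in it can occur by chance. The interval held 7 matches, all on the minus strand. They are shown as 29 bases of GRCh37, 5′ to 3′ on the minus strand, with the match in capitals, in order of rising coordinate.
Site 1, chr11:2018132-2018150: cgaagCGGCCACGGGAGGGGGGCCccggg
Site 2, chr11:2020273-2020291: ggaaaTGGCCGAGAGGCGGCAGTGgtgac
Site 3, chr11:2021196-2021214: ggaagTGGCCGCGCGGCGGCAGTGcaggc
Site 4, chr11:2022008-2022026: ggaagTGGCCGCGTGGCGGCAGTGcaggc
Site 5, chr11:2023441-2023459: aaaagTGGCCGCGCGGCGGCAGTGcaggc
Site 6, chr11:2023842-2023860: ggaagTGGCCGCGCGGCGGCAGTGcaggc
Site 7, chr11:2024247-2024265: agaagTGGCCGCGCGGCGGCAGTGcaggc
Sites 3, 5, 6 and 7 were identical over all 19 bases of the match, and sites 3, 4 and 6 also shared the bases printed on either side. Neighbouring sites were 401 to 2141 bp apart.

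The matches in the control region were rich in CpG, the dinucleotide that is methylated on the paternal copy. The 6 CTCF regions of the control region had a median of 4 CpG within the 19 bases, against a median of 1 in the 27 other CTCF regions with a match near the imprinted genes. Only 1.61% of the 38872 CTCF regions with a match on chromosomes 1 to 22 had 4 or more. Here and below, a match in a region is the best one within 50 bases of its summit. It had to pass a looser score, reached in 5% of those neighbouring windows. Methylation itself was not measured. Although the sites repeat one another, none of the 9937 windows of 65 bases in the interval occurred more than once within it, so reads of that length could be placed within the interval where they matched it exactly.

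CTCF was found in the control region in every genotype. The interval held 5 CTCF peaks for wild-type, 6 for ΔWAPL, 4 for ΔSCC4 and 5 for the double deletion. Site 4 had the highest pileup in each library, with 59 reads for wild-type, 66 for ΔWAPL, 50 for ΔSCC4 and 73 for the double deletion. At site 3 the same libraries gave 46, 53, 35 and 57 reads.

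Site 5 had 53, 40, 49 and 40 reads in that order, and site 6, the weakest of those found in every genotype, had 36, 29, 24 and 30. Site 7 had 57, 57 and 56 reads in wild-type, ΔWAPL cells and the double deletion and no peak in ΔSCC4 cells. Site 2 was found in ΔWAPL cells only, with 38 reads, and no peak of either antibody lay at site 1. Sites 3 to 6 therefore had a CTCF peak in all 4 libraries.

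Relative to library average, most of these CTCF pileups were within counting error of wild-type. The ratio of ΔWAPL to wild-type ran from 0.597 (95% interval 0.386–0.918) at site 5 to 0.912 (0.603–1.38) at site 3, and site 5 was the only one whose interval left out 1. The ratio of ΔSCC4 to wild-type ran from 0.590 (0.337–1.02) at site 6 to 0.819 (0.544–1.23) at site 5. In the double deletion it ran from 0.671 (0.434–1.03) at site 5 to 1.10 (0.734–1.66) at site 3, and no interval left out 1 in either of the SCC4 deletions.

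Cohesin was found in the control region in fewer genotypes than CTCF. No SMC1 peak was found there in wild-type or ΔSCC4 cells, whereas ΔWAPL cells had 4 and the double deletion had 3. In ΔWAPL cells the SMC1 pileup was 36 reads at site 3, 30 reads at site 4 and 28 reads at site 6. The remaining ΔWAPL peak, chr11:2019624-2019862, had 33 reads and overlapped no CTCF peak of any genotype. It had a match at chr11:2019733-2019751 on the minus strand. The score of 10.4 passed the 5% score but not the 1% score of 11.5 used for the 7 sites.

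In the double deletion the SMC1 pileup was 20 reads at site 4, 21 reads at site 6 and 28 reads at site 7, where ΔWAPL cells had no SMC1 peak. At site 5 no SMC1 peak was found in any genotype. The SMC1 peaks of the control region were weak ones, with −log10 q of 4.08 to 9.97 and fold enrichment of 3.17 to 4.80, so none passed a −log10 q of 10 or a fold enrichment of 5.

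**Figure D1:**
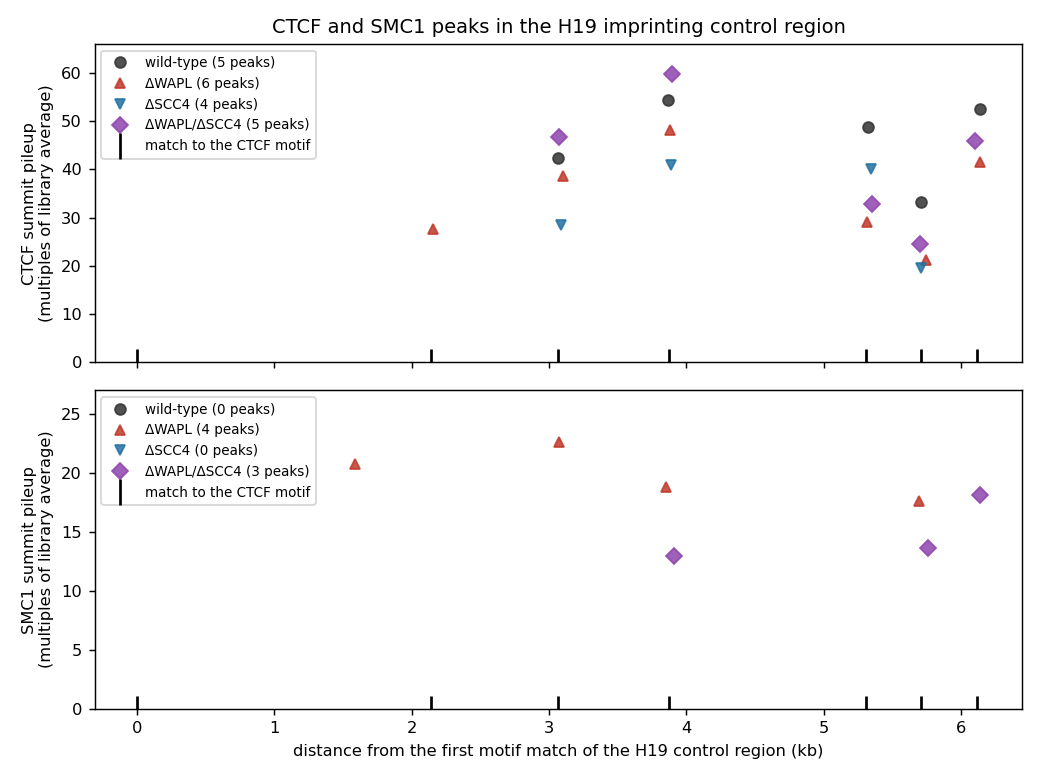
Summit pileup of each CTCF peak (top) and SMC1 peak (bottom) in the H19 control region, as multiples of the library's average pileup, against the distance in kb from the first of the 7 motif matches (ticks). At 4 of the matches CTCF peaks of all genotypes stand together, and SMC1 peaks occur in ΔWAPL (4 peaks) and the double deletion (3 peaks) and in neither of the other genotypes.

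The peak caller's background was high across the control region. It was 7.32 to 7.40 reads at the wild-type CTCF summits, 6.75 to 6.83 times the average of that library, and 8.11 to 8.20 reads at the ΔWAPL SMC1 summits. Backgrounds of this kind were common where peaks lay close together. In the wild-type CTCF list the median background was 1.67 times the average where no other peak lay within 5 kb and 8.02 times where at least 3 did. These values were 1.63 and 7.26 in the ΔWAPL SMC1 list and 1.43 and 13.6 in the wild-type SMC1 list. The wild-type IgG list showed the same rise, from 1.32 to 11.4. A weak peak is harder to call on a high background, and the part of this in the missing SMC1 peaks was not tested.

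CTCF peaks of like strength were therefore set beside those of the control region, a comparison chosen after the values were seen. In wild-type cells, 51.8% of the 9490 CTCF peaks with 36 to 59 reads overlapped an SMC1 peak, against 0 of 5 in the control region. Among the 455 of these whose CTCF background was at least 4 times the average, 41.1% did. The SMC1 background, on which an SMC1 call rests, could not be matched. It was recovered only at listed SMC1 peaks, and the control region had none in wild-type or ΔSCC4 cells. For ΔWAPL cells the control region had 3 of 6, against 74.7% of 18233 CTCF peaks of like pileup and 67.7% of the 390 with a high background. The ΔSCC4 values were 0 of 4 against 25.0% and 28.5%, and those of the double deletion were 3 of 5 against 73.3% and 60.7%. Matched on −log10 q in place of pileup, the comparison peaks overlapped SMC1 less often, at 18.4% for wild-type, 42.4% for ΔWAPL, 9.71% for ΔSCC4 and 37.2% for the double deletion. The control region thus stood below its comparison peaks in all 4 libraries by pileup, and in both lines without WAPL above them by −log10 q. With at most 6 sites a library, the exact 95% interval was 0 to 52.2% for wild-type, 11.8 to 88.2% for ΔWAPL, 0 to 60.2% for ΔSCC4 and 14.7 to 94.7% for the double deletion, each of which held all of that library's shares above. The sites also lie within a few kb of each other.

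Around H19 the other CTCF sites kept their peaks in most genotypes. H19, a long non-coding RNA gene, is annotated at chr11:2016396-2025782 on the minus strand, so its longest transcripts take in the control region. At lower coordinates lies MRPL23, which encodes a mitochondrial ribosomal protein. There 4 CTCF regions had a match on the plus strand, pointing towards the control region. The matches of chr11:1968354-1968752 and chr11:1970294-1970509 passed only the 5% score. The match of chr11:1970294-1970509 scored 6.707, barely above that threshold of 6.705. The strongest CTCF region near H19, chr11:1974739-1975181, had 86 reads for wild-type, 72 for ΔWAPL, 76 for ΔSCC4 and 63 for the double deletion.

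SMC1 at this site had 17 reads in wild-type, 20 in ΔWAPL and 20 in ΔSCC4 cells, and no peak in the double deletion. Between H19 and IGF2, the CTCF region chr11:2058059-2058532 had 58, 42, 56 and 61 reads in wild-type, ΔWAPL, ΔSCC4 and doubly deleted cells. SMC1 was present there in all genotypes, with 16, 24, 22 and 34 reads. Relative to wild-type the ΔWAPL pileup was 1.48 (0.757–2.99) and that of the double deletion 2.17 (1.17–4.22), so only the second interval left out 1.

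The IGF2 gene (chr11:2150342-2179621, minus strand) had its own CTCF cluster in introns near its upstream promoters. At chr11:2172671-2173092 CTCF had 54, 58, 55 and 50 reads in wild-type, ΔWAPL, ΔSCC4 and doubly deleted cells, and SMC1 had 23 in wild-type, 23 in ΔWAPL and 20 in the double deletion with no peak in ΔSCC4 cells. The neighbouring CTCF region chr11:2173171-2173559 had 67, 53, 50 and 63 reads. SMC1 there had 18 reads in wild-type and 25 in ΔWAPL cells, and was not found in either line without SCC4.

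The third CTCF region, chr11:2177715-2178052, had 54, 60, 56 and 69 reads, and SMC1 had 31 in ΔWAPL and 12 in ΔSCC4 cells only. All 3 matches lay on the minus strand, as in the control region. Their scores were 19.1, 9.97 and 17.2, of which 9.97 passed only the 5% score. One more CTCF region in the gene, chr11:2171483-2171728, had no motif match and no SMC1, with 25 reads in ΔWAPL, 20 in ΔSCC4 and 27 in the double deletion. Inside IGF2, then, 3 of 4 CTCF regions were found in every genotype, and SMC1 was absent from at least one genotype at every site. Over the genome, 64.2% of CTCF regions and 28.2% of SMC1 regions were found in all 4 genotypes. Nothing particular to IGF2 is read from these few counts.

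The largest ratio of SMC1 between ΔWAPL and wild-type cells was beyond IGF2, in an exon of TH, the gene of tyrosine hydroxylase. The CTCF match lies on the plus strand and is shown because the SMC1 change is seen at it.
TH exon, chr11:2187508-2187526: ccaggTAGCCGGCAGGTGGCAGCAcaggc
SMC1 had 13 reads for wild-type, 53 for ΔWAPL, 15 for ΔSCC4 and 24 for the double deletion. The ΔWAPL library stood above the other 3, with a ratio to wild-type of 4.04 (2.17–8.07), and the double deletion stood at 0.468 (0.276–0.771) of ΔWAPL. The SMC1 background was 1.58 reads in wild-type and 3.58 in ΔWAPL cells, and the fold enrichment 5.43 and 11.8.
CTCF at the same site had 59, 62, 36 and 79 reads, a ratio of 0.832 (0.573–1.21) in ΔWAPL and 0.540 (0.347–0.832) in ΔSCC4 cells.

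Further along, at chr11:2207933-2208286 between genes, SMC1 had 39 reads in ΔWAPL and 16 in the double deletion and no peak in the others. CTCF there had 31, 39, 26 and 46 reads in wild-type, ΔWAPL, ΔSCC4 and doubly deleted cells. This was the strongest SMC1 region near IGF2 that was found in ΔWAPL and not in wild-type cells. In all, the IGF2 window held 5 SMC1 peaks for wild-type, 7 for ΔWAPL, 2 for ΔSCC4 and 5 for the double deletion, against 8, 8, 9 and 9 CTCF peaks.

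**Figure D2:**
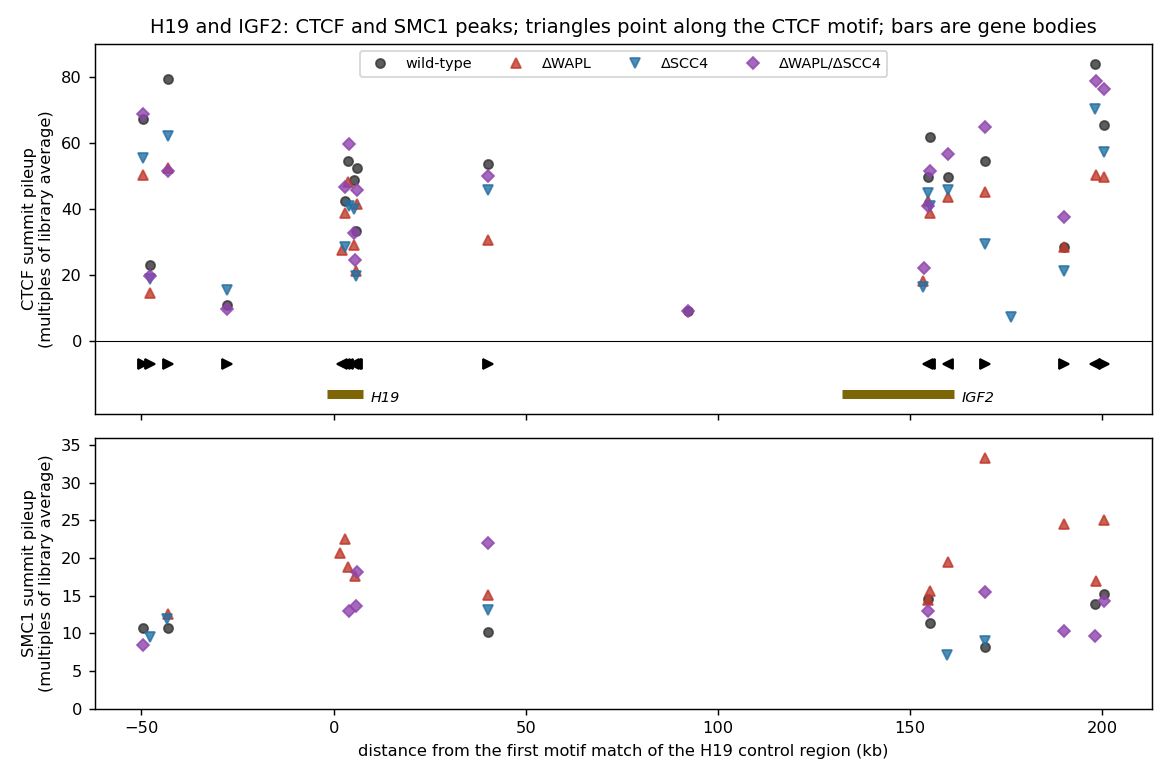
CTCF (top) and SMC1 (bottom) summit pileup, as multiples of the library's average, along H19 and IGF2, against the distance in kb from the first motif match of the H19 control region. Black triangles point along the CTCF motif of each CTCF region with a match by the 5% score, and bars mark the gene bodies. Matches are on the plus strand at MRPL23 and on the minus strand in the control region and in IGF2.

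KCNQ1OT1 and CDKN1C belong to the second imprinted domain of chromosome 11. KCNQ1OT1 is a long non-coding RNA that runs antisense within KCNQ1 and silences neighbours on the paternal copy, and CDKN1C encodes a cyclin-dependent kinase inhibitor. KCNQ1OT1 (chr11:2618538-2721233, minus strand) had no SMC1 peak in any genotype within 50 kb. Its only CTCF region, chr11:2713630-2713899, lay 7442 bp from the nearest KCNQ1OT1 start, with 9 reads in ΔSCC4 and 13 in the double deletion. Such low pileups are close to the lowest that were called, 7 in the ΔSCC4 and 6 in the doubly deleted CTCF list.

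CDKN1C (chr11:2904443-2907005, minus strand) had no peak within 1 kb of its starts. Both of its strongest SMC1 regions lay in the neighbouring SLC22A18AS, an antisense gene, and each was at a CTCF match on the minus strand, of which the stronger is shown.
SLC22A18AS exon, chr11:2909778-2909796: ccatcTGGCCAGCAGAGGGCGCAGaagga
At this exon SMC1 had 38 reads for wild-type, 88 for ΔWAPL, 40 for ΔSCC4 and 51 for the double deletion. The ΔWAPL library was highest, at 2.29 (1.55–3.45) times wild-type, and ΔSCC4 stood at 0.992 (0.620–1.59). The SMC1 background was 5.12 reads in wild-type and 10.2 in ΔWAPL cells, and the fold enrichment 6.37 and 7.95. CTCF had 89, 107, 85 and 91 reads there.

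The intron site, chr11:2913188-2913713, gave SMC1 36, 75, 26 and 44 reads in wild-type, ΔWAPL, ΔSCC4 and doubly deleted cells, with 2.06 (1.37–3.16) for ΔWAPL. Its SMC1 background was 3.725 reads in wild-type and 7.84 in ΔWAPL cells, and its fold enrichment 7.83 and 8.60. CTCF there had 88, 65, 66 and 81 reads. Near PHLDA2, which encodes a growth-restraining placental protein, the SMC1 region chr11:2951919-2952345 was found in ΔWAPL (36 reads) and the double deletion (18 reads) only. CTCF at that region had 28, 48, 22 and 66 reads, and the double deletion was above wild-type there (interval of the ratio 1.33–3.39). For the double deletion, 2 of 27 CTCF intervals lay above 1 (genome 2.30%) and 1 lay below it (genome 5.77%).

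On chromosome 14, DLK1 encodes a transmembrane ligand of the Notch family expressed from the paternal copy, and MEG3 a long non-coding RNA expressed from the maternal copy. DLK1 (chr14:101192042-101204561, plus strand) had no peak of either antibody in its body. A weak SMC1 peak of 13 reads at chr14:101174730-101174938 was found in ΔWAPL cells only, where CTCF had 10 reads in ΔWAPL and 14 in the double deletion. One more CTCF region between DLK1 and MEG3, chr14:101215417-101215643, had 9 reads in the double deletion only.

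MEG3 (chr14:101245747-101327368, plus strand) had the most SMC1 regions found in ΔWAPL and not in wild-type cells outside the H19 window. Its SMC1 peaks numbered 2 for wild-type, 6 for ΔWAPL, 2 for ΔSCC4 and 3 for the double deletion. The 2 found in every genotype overlap the CTCF matches shown, in an exon near the 3′ end of MEG3 and in introns of MEG8 and RTL1. The second is the match of the CTCF region there, and no match lay within 50 bases of the SMC1 summit.
MEG3 exon, chr14:101317650-101317668, plus strand: ggtttTGCCCACCAGGGGGCAGCAgaggg
MEG8 and RTL1 introns, chr14:101367396-101367414, minus strand: ccgacCCGCCGTGGGGGGGCAGCAtcgtg
At the MEG3 exon SMC1 had 26 reads for wild-type, 48 for ΔWAPL, 17 for ΔSCC4 and 48 for the double deletion, with ratios to wild-type of 1.83 (1.11–3.07), 0.616 (0.314–1.18) and 1.89 (1.15–3.17). Both lines without WAPL were above the other two. The SMC1 background was 2.81 reads in wild-type and 3.16 in ΔWAPL cells, and the fold enrichment 7.08 and 11.8. CTCF had 44, 42, 24 and 57 reads, and its ratio of 0.483 (0.281–0.812) in ΔSCC4 cells was the lowest CTCF ratio of that genotype.

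Over MEG8 and RTL1, a non-coding RNA gene and a retrotransposon-derived gene of the same domain, SMC1 had 28 reads for wild-type, 98 for ΔWAPL, 26 for ΔSCC4 and 68 for the double deletion. The ratios were 3.46 (2.26–5.48), 0.875 (0.493–1.55) and 2.48 (1.58–4.01). Here too the lines without WAPL were highest, while CTCF had 54, 72, 31 and 77 reads. The SMC1 background was 3.94 reads in wild-type and 11.2 in ΔWAPL cells, and the fold enrichment 5.87 and 8.12.

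Along the next few kb of MEG8, 3 more SMC1 regions were found in ΔWAPL and not in wild-type or ΔSCC4 cells. These were chr14:101368609-101368840 with 36 reads, chr14:101370737-101371067 with 58 reads and chr14:101372788-101373169 with 49 reads, the last also in the double deletion with 27 reads. The matches of the CTCF regions under them were all on the plus strand, whereas that of the CTCF region shared by all genotypes was on the minus strand. The scores were 8.30, 15.9 and 18.6, and 10.5 at the shared region, so 8.30 and 10.5 passed only the 5% score. CTCF at chr14:101370766-101370979 had 23 reads in wild-type and 34 in ΔWAPL cells and no peak in either line without SCC4. A further SMC1 peak inside a MEG3 intron, chr14:101274695-101274902, had 11 reads in ΔWAPL cells only and neither a CTCF region nor a motif match.

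PEG10 and MEST share chromosome 7, and both are expressed from the paternal copy. PEG10 is a retrotransposon-derived gene of the placenta, MEST encodes a hydrolase-like protein, and each has a methylated control region at its start on the maternal copy. The 2 starts are shown at their CTCF matches, since both carried CTCF and only the first carried SMC1.
PEG10 and SGCE start, chr7:94285521-94285539, minus strand: gtggcCCGCCGCTAGAGGGAGTACgggat
MEST start, chr7:130126004-130126022, plus strand: tacccTTTGCAATAGGTGGCGCTGacgcc
PEG10 (chr7:94285637-94299007, plus strand) shares its start region with SGCE, which encodes a sarcoglycan, and the SMC1 summit lay 9 bp from an SGCE start and 106 bp from a PEG10 start. CTCF had 83 reads for wild-type, 65 for ΔWAPL, 82 for ΔSCC4 and 94 for the double deletion.

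SMC1 at the PEG10 start had 44, 107, 35 and 56 reads in the same order. Its ΔWAPL value was the highest SMC1 pileup of all 27 regions, at 2.41 (1.68–3.50) times wild-type, while CTCF stood at 0.620 (0.441–0.868). The SMC1 background differed too, with 3.59 reads in wild-type and 8.2 in ΔWAPL cells. By fold enrichment the difference was smaller, 9.81 in wild-type and 11.8 in ΔWAPL cells. In ΔSCC4 cells SMC1 stood at 0.750 (0.467–1.20), and in the double deletion at 1.30 (0.861–1.98). This was the only one of the 10 genes with an SMC1 peak within 1 kb of a start in all 4 genotypes.

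At the MEST start (gene at chr7:130126012-130146306, plus strand) CTCF had 21 reads in wild-type and 20 in ΔWAPL cells, and no peak in ΔSCC4 or the double deletion. The second CTCF region of MEST, chr7:130130709-130131071, in an intron and at a start of the antisense gene MESTIT1, was found in all genotypes with 14, 30, 12 and 43 reads. It had no motif match, and its ratio of double deletion to wild-type, 2.73 (1.47–5.40), was the highest CTCF ratio of any region. No SMC1 peak of any genotype lay within 50 kb of MEST.

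PEG3 (chr19:57321445-57352096, minus strand), a zinc-finger gene, had neither CTCF nor SMC1 peaks in any genotype within 50 kb. SNRPN (chr15:25068784-25223870, plus strand), whose start carries the control region of the Prader-Willi and Angelman domain, had no SMC1 peak. Its only CTCF region, chr15:25092256-25092489 in an intron, had 11 reads in wild-type and 11 in the double deletion. KCNQ1OT1, MEST, PEG3 and SNRPN were thus the 4 genes without SMC1 in any genotype, and at these genes only the MEST intron region had CTCF in every genotype.

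**Figure D3:**
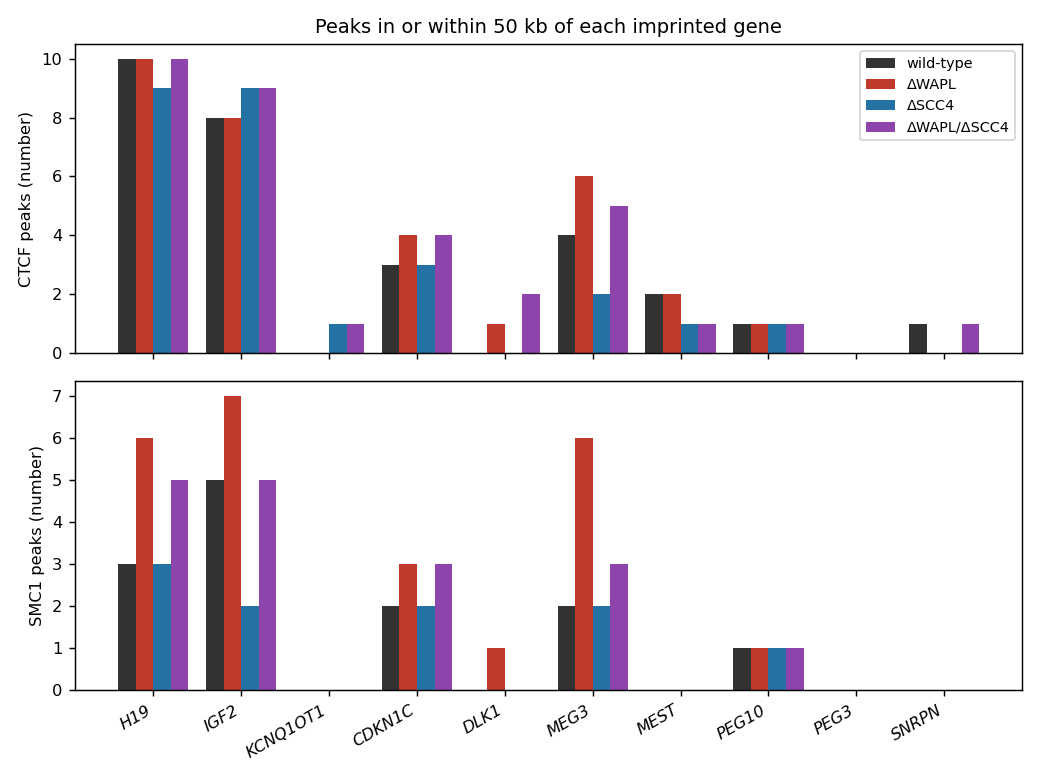
Number of CTCF peaks (top) and SMC1 peaks (bottom) in or within 50 kb of each gene, with 1 bar per genotype and 1 library per bar. H19 and IGF2 have the most CTCF peaks, and the SMC1 bars of H19, IGF2 and MEG3 are highest in ΔWAPL cells (6, 7 and 6 peaks).

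Over all 10 genes, SMC1 peaks numbered 13 for wild-type, 24 for ΔWAPL, 10 for ΔSCC4 and 17 for the double deletion. The ratios to wild-type were 1.85 (0.903–3.95), 0.769 (0.302–1.90) and 1.31 (0.598–2.93), and the whole SMC1 lists gave 1.83, 0.689 and 1.43. CTCF peaks numbered 29, 32, 26 and 33, ratios of 1.10 (0.647–1.89), 0.897 (0.507–1.58) and 1.14 (0.670–1.94) against 1.06, 0.874 and 1.11 for the whole lists. Counts at these genes thus changed by about as much as those of the whole lists, and every interval held 1.

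Nearly all cohesin near the imprinted genes was at CTCF. A CTCF peak of the same cells lay under 13 of 13 wild-type SMC1 peaks (100%, exact 95% interval 75.3–100), in ΔWAPL 22 of 24 (91.7%, 73.0–99.0), in ΔSCC4 10 of 10 (69.2–100) and in the double deletion 17 of 17 (80.5–100). The whole lists gave 94.5%, 81.6%, 95.2% and 93.5%, each within the interval at the imprinted genes. The 2 exceptions in ΔWAPL cells were the control region peak between sites 1 and 2 and the MEG3 intron peak described above.

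The share of CTCF peaks with SMC1 was 44.8% (26.5–64.3) for wild-type, 71.9% (53.3–86.3) for ΔWAPL, 38.5% (20.2–59.4) for ΔSCC4 and 51.5% (33.5–69.2) for the double deletion. In the whole lists it was 40.7%, 60.8%, 32.3% and 52.2%, each within the interval at the imprinted genes.

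Of the 27 SMC1 regions, 7 were found in all 4 genotypes, against 28.2% of all SMC1 regions of the genome. Of 24 regions in ΔWAPL, 12 had no wild-type peak, where the genome gave 48.9%. Of 13 wild-type regions 5 were not found in ΔSCC4 (genome 39.6%), and 4 of these 5 were found in the double deletion (genome 78.3%). Of 24 ΔWAPL regions, 9 were not found in the double deletion (genome 31.5%). These shares were near those of the genome, so they say nothing particular about imprinted genes.

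The 12 SMC1 regions found in ΔWAPL and not in wild-type cells were 4 in the H19 control region, 2 near IGF2, 1 near CDKN1C, 1 near DLK1 and 4 at MEG3. A CTCF region lay under 10 of them (70.0% of 16552 such SMC1 regions of the genome), and a CTCF region with a wild-type peak under 8 (genome 60.8%). In the double deletion 5 of the 12 were also found (genome 42.9%), and in ΔSCC4 cells 1 (genome 7.29%). The 2 counts at CTCF stood somewhat above the genome and the other 2 near it, and with 12 regions no difference was tested.

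Where both libraries had an SMC1 peak, the ΔWAPL pileup mostly exceeded the wild-type one. It did so at 11 of 12 regions, and 6 had an interval above 1 (genome 42.7%): the TH exon, the MEG8 and RTL1 region, PEG10, both SLC22A18AS regions and the MEG3 exon. The median ratio was 1.74, against 1.61 over 17290 regions of the genome, of which 86.7% were above 1. At least 1.5-fold higher were 7 of 12, where the genome gave 56.8%.

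The 12 ratios ran from 0.990 in the IGF2 intron to 4.04 in the TH exon. Measured by the deposited fold enrichment, the median was 1.14. Set against the library's median over regions found in all genotypes it was 1.00.

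In ΔSCC4 cells the median SMC1 ratio to wild-type was 0.934 over 8 regions, against 0.817 for the genome. Only the MEG3 exon was at least 1.5-fold lower, 1 of 8 with 24.5% in the genome, and no interval left out 1 (in the genome 8.78% lay below 1). In the double deletion the median was 1.30 over 11 regions (genome 1.28), with 4 of 11 at least 1.5-fold higher (genome 29.7%). With the fold enrichment or the median scaling above, both medians crossed 1, to 1.03 and 1.19 in ΔSCC4 and to 0.993 and 0.985 in the double deletion, so neither gives a direction. Compared with ΔWAPL directly, the double deletion had a lower SMC1 pileup at 13 of the 15 regions found in both, and at 72.6% of 23181 regions of the genome. The median ratio of the double deletion to ΔWAPL was 0.599 (genome 0.795), and 9 of the 15 intervals lay below 1 (5321 of 23181 in the genome). That difference from the genome was not tested. The exceptions were the region between H19 and IGF2 at 1.46 (0.843–2.58) and the MEG3 exon at 1.03 (0.678–1.58).

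**Figure D4:**
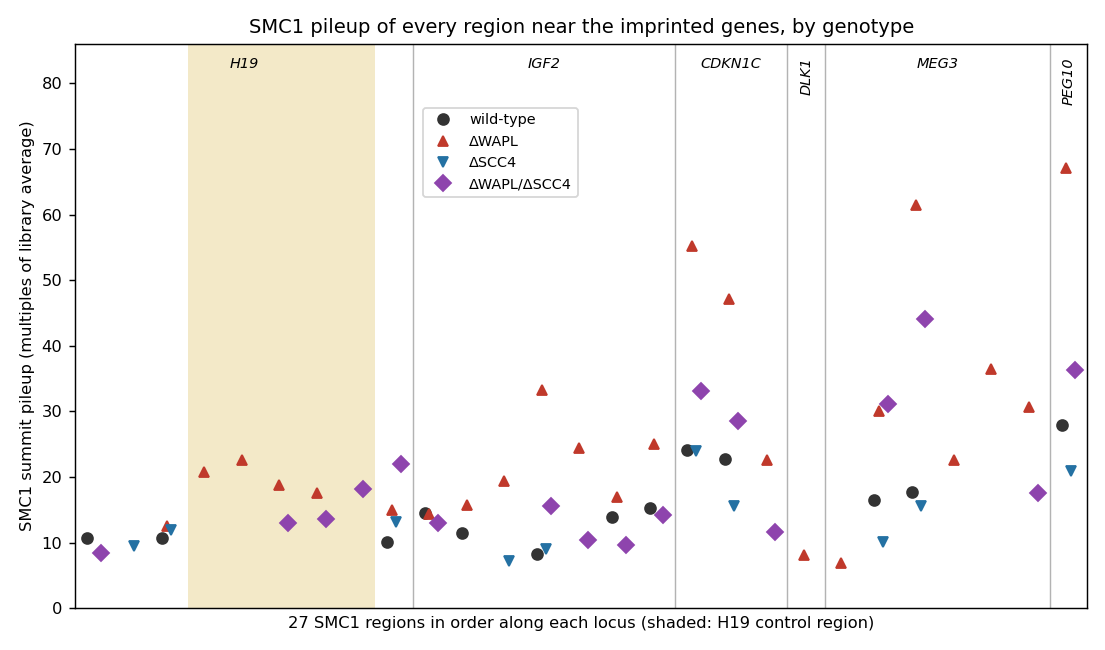
SMC1 summit pileup of each of the 27 regions, as multiples of the library's average, in order along each locus, with 1 marker per genotype that had a peak and none where no peak was listed. The shaded regions lie in the H19 control region and hold no wild-type or ΔSCC4 marker, and the ΔWAPL marker at PEG10 is the highest of all.

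**Figure D5:**
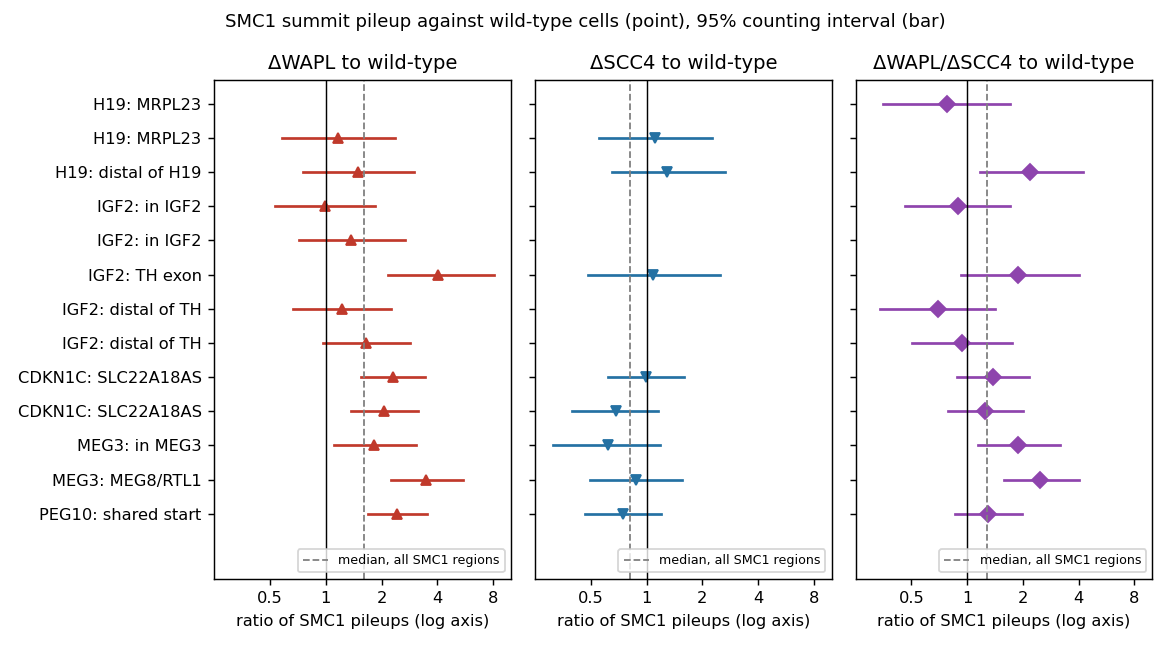
Ratio of SMC1 summit pileup to wild-type (log axis) at each region with a peak in both libraries, with 95% counting intervals, for ΔWAPL, ΔSCC4 and the double deletion. The dashed line is the median over all SMC1 regions of the genome (1.61, 0.817 and 1.28), and 6 of the 12 ΔWAPL intervals lie above 1.

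Of the 37 CTCF regions, 22 were found in all 4 genotypes (genome 64.2%). Of 31 in ΔWAPL cells 5 had no wild-type peak (genome 13.8%), and of 29 in wild-type cells 6 had none in ΔSCC4 cells (genome 16.6%). Those 6 were H19 site 7, the region chr11:2110239-2110574 near IGF2, 2 regions in MEG8, the MEST start and the SNRPN intron.

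The median CTCF ratio to wild-type was 0.775 in ΔWAPL cells over 26 regions (genome 0.829). Of these, 21 lay below 1 and 5 above it, where 25.25% of the regions of the genome lay above 1. At least 1.5-fold lower were 9 of the 26 (genome 16.3%). In ΔSCC4 cells the median was 0.782 over 23 regions (genome 0.802). Below 1 lay 22 and above it 1, where 16.36% of the regions of the genome lay above 1. At least 1.5-fold lower were 6 of the 23 (genome 22.4%). Over 27 regions in the double deletion the median was 0.978 (genome 0.921). Intervals lay below 1 at 7 regions in ΔWAPL (genome 17.5%) and 5 in ΔSCC4 cells (genome 17.4%). When pileups were scaled by the library's median over regions found in all genotypes, the medians became 0.920 in ΔWAPL, 0.989 in ΔSCC4 cells and 1.06 in the double deletion, so the size of these differences, and the direction in the double deletion, rest on the scaling.

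A CTCF match within 50 bases of the summit, by a score that 5% of neighbouring windows passed, was found in 33 of the 37 CTCF regions (89.2%, exact interval 74.6–97.0). Over all CTCF regions it was found in 76.0% on odd-numbered chromosomes, where the motif was learned, and 74.6% on even-numbered ones. Of the matches, 16 lay on the plus and 17 on the minus strand. All 25 CTCF regions that overlapped an SMC1 region had a match, and 8 of the 12 that did not. Over chromosomes 1 to 22 a match was likewise found more often at CTCF regions with an SMC1 region (88.4% of 30422) than at those without (56.6% of 21187). The 4 without a match were 3 regions near IGF2 and the MEST intron region.

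The list of 39 further imprinted genes was treated in the same way, and 38 symbols were found in the annotation. Within 50 kb of them, and not near the 10 genes above, lay 85 SMC1 and 113 CTCF regions. SMC1 was present in 43 of the 85 regions for wild-type, 78 for ΔWAPL, 23 for ΔSCC4 and 64 for the double deletion. Of all 38018 SMC1 regions of the genome, 18442 were present in wild-type and 33842 in ΔWAPL cells. CTCF was present in 92, 89, 84 and 100 of the 113. Of all 53945 CTCF regions of the genome, 42949 were present in wild-type and 45666 in ΔWAPL cells. Of the 78 SMC1 regions in ΔWAPL cells 37 had no wild-type peak, a share of 47.4% beside the 48.9% of the genome.

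The gene with the most such regions was TP73, a p53 relative, with 5, followed by BLCAP, NNAT and KLF14 with 3 each. NNAT lies within an intron of BLCAP, so these 2 share their regions. At TP73 the 9 CTCF regions were found in all genotypes, while SMC1 was found at 3 sites for wild-type, 8 for ΔWAPL, 2 for ΔSCC4 and 4 for the double deletion. TP73 is named because of its ΔWAPL gains, and 64.2% of all CTCF regions of the genome were found in every genotype.

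The limit of 50 kb left out strong sites at some loci. Farthest inside it was the SMC1 region at MRPL23, chr11:1968390-1968654, 47.7 kb from H19, with 17 reads in wild-type and 13 in the double deletion. Nearest outside were a CTCF region of 8 reads in the double deletion, 50.5 kb from IGF2, and for SMC1 a region 62.0 kb from DLK1 with 27 reads in ΔWAPL, 16 in ΔSCC4 and 24 in the double deletion. KCNQ1OT1, with no SMC1 inside the limit, had an SMC1 region 64.0 kb away with 62, 139, 40 and 87 reads in wild-type, ΔWAPL, ΔSCC4 and doubly deleted cells.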

How the data were processed

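SMC1, CTCF and IgG ChIP-seq lists of 4 genotypes were used, with 1 library per group. The authors mapped reads to hg19 with Bowtie2 and called peaks with MACS2 2.1.1. The methods name IgG as the control, but it could not be told whether IgG entered the deposited values. The deposited columns used were the fold enrichment (a ratio of summit pileup to background, each with 1 read added) and the −log10 p-value and −log10 q-value of each peak. From fold enrichment and −log10 p together, a whole-number pileup and its background were recovered, with exactly 1 solution for at least 99.98% of peaks in every list. Above the lowest value, backgrounds were whole numbers of reads in 10 kb for 100% of peaks, to within 0.02, counted at the ChIP library's own fragment length with no scaling. Backgrounds, fold enrichment and q are therefore read here as relative to the ChIP library itself and not to IgG. The lowest background was taken as the library's average pileup. Recovery was checked on simulated data.

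Peaks overlapping by at least 1 bp were merged into regions over genotypes, with the peak of highest −log10 q kept per genotype. Genes came from GENCODE version 44 on GRCh37, the build of the lists. All 10 genes were described, with regions in a gene body, in the control region, within 1 kb of a start, or strongest in a window by −log10 q (overall and among SMC1 regions in ΔWAPL and not wild-type). Up to 5 further imprinted genes with the most such regions were to be named; 4 stood above a tie. Genes and lists were chosen with earlier results of these data known. Analyses used Python 3.11.15, pandas 2.3.3, scipy 1.17.1 and pysam 0.24.0.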

Additional observations from a re-analysis of the deposited data

Results flagged for a closer look

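For 3 CTCF values the same deletion went with opposite directions in 2 backgrounds, with 1 library each, and these differences were not tested. The median CTCF pileup ratio for loss of WAPL was 0.775 from wild-type to ΔWAPL cells and 1.26 from ΔSCC4 to the double deletion. For loss of SCC4 it was 0.782 from wild-type to ΔSCC4 cells and 1.33 from ΔWAPL to the double deletion. The number of CTCF peaks near the imprinted genes changed by a ratio of 0.897 with loss of SCC4 from wild-type and 1.03 from ΔWAPL. All 3 turned in the same way over the whole genome: the medians were 0.829 and 1.14 for loss of WAPL and 0.802 and 1.12 for loss of SCC4, and the numbers of CTCF peaks changed by 0.874 and 1.04. Scaled by library medians over regions in all genotypes, the values near the imprinted genes were 0.920 and 1.07 for loss of WAPL and 0.989 and 1.21 for loss of SCC4. Nothing particular to these genes is read from them. For SMC1 the median ratio was 1.74 in both backgrounds for loss of WAPL. For loss of SCC4 it was 0.934 and 0.599, but 1.19 and 0.785 with that scaling. The contrasts share libraries, so they are not independent of each other.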

How the results depend on the processing

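Of 302 values recomputed under the alternatives, 279 stayed within their counting interval or within 1.5 times of a count, and 23 moved. No median whose interval lay on one side of 1 changed direction, but 3 medians whose interval held 1 crossed it. For SMC1 these were ΔSCC4 from 0.934 to 1.03 with fold enrichment and 1.19 with median scaling, and the double deletion from 1.30 to 0.993 and 0.985. For CTCF the double deletion went from 0.978 to 1.06 with median scaling and to 1.01 over regions in all genotypes only. Windows of 20 or 100 kb or the gene body alone, stricter overlaps and removal of peaks at IgG peaks moved none. The SMC1 peaks of the H19 control region depended on the threshold. With −log10 q of at least 5 the double deletion kept 1, as also at equal depth, and with −log10 q of at least 10 or fold enrichment of at least 5 there were 0 in any genotype. CTCF peaks there fell to 3 in ΔWAPL and 3 in the double deletion with fold enrichment of at least 5, and to 3 in wild-type and 3 in the double deletion when intervals closer than 500 bp were merged. The share of ΔWAPL SMC1 peaks at CTCF became 100% under both stricter thresholds, the share of ΔSCC4 CTCF peaks with SMC1 became 20.0% with −log10 q of at least 10, and the share of ΔWAPL SMC1 regions not in wild-type became 28.6% with fold enrichment of at least 5. With the deposited fold enrichment in place of pileup, the median ratio was 1.14 for SMC1 in ΔWAPL, 0.968 for CTCF in ΔWAPL and 0.943 for CTCF in ΔSCC4 cells. Scaled by the library median over regions in all genotypes these were 1.00, 0.920 and 0.989. The motif share was 67.6% with the score passed by 1% of neighbouring windows. The causes of these moves were not tested, beyond the smaller number of peaks that stricter thresholds leave. No paired analysis was possible because each group held 1 library.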
